A study of Homo sapiens with 12 samples.

Results

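SYPL1, B4GALT4, IGFALS, TAS1R3, FER1L5 and TCF4 are 6 of the 21508 genes listed in 12 RNA-seq libraries of EndoC-βH1 cells, an established human beta cell line that makes insulin. They were chosen by measured values: their difference between TUNAR siRNAs and negative control siRNA stayed past the threshold in DMSO with each replicate number removed in turn. The values of that comparison for these genes are given below as a description, without a test. All 6 were among the 15990 genes with enough reads to be tested. TUNAR is annotated as a long noncoding RNA, and GSK3 is a kinase that marks beta-catenin for degradation. The study asked how silencing the one and inhibiting the other alter gene expression in these cells.

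The libraries form 4 groups of 3. Cells received either AllStars negative control siRNA or siRNAs against TUNAR, and after 2 days each was exposed for 24 h to the GSK3 inhibitor 1-AKP at 5 µM or to DMSO. Replicates 1 and 2 came from cells at passage 74 and replicate 3 from passage 75 in every group. All groups share the line and the transfection reagent, and no group was left untransfected. The labels name TUNAR siRNAs without saying how many were used or giving their sequences, so single siRNAs cannot be compared. The libraries of 1 line are not separate donors, and the p-values below measure only the spread between these libraries, which may be technical.

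The 6 genes have unlike functions. SYPL1 is a membrane protein of the synaptophysin family found in transport vesicles, B4GALT4 is a Golgi enzyme that adds galactose to sugar chains, and IGFALS is the secreted acid-labile subunit that holds insulin-like growth factors in a long-lived complex in blood. TAS1R3 is the shared subunit of the sweet and umami taste receptors and is known in beta cells as part of a sugar-sensing receptor, FER1L5 belongs to the ferlins, which carry calcium-binding C2 domains and act in membrane fusion, and TCF4 is an E protein, a transcription factor of the helix-loop-helix class (bHLH), and binds E-box DNA with partners such as NEUROD1. This TCF4 is a different gene from TCF7L2, the Wnt effector that is also written TCF4 in older work.

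The libraries held between 15653786 and 15986834 expected counts, the read numbers that RSEM assigns to each gene. CPM below are these counts after rounding, relative to the normalised library size. TUNAR, the targeted gene, was measured at 14.4, 19.9 and 17.7 CPM under negative siRNA in DMSO and at 3.83, 7.20 and 8.09 CPM under TUNAR siRNAs. In 1-AKP it was at 27.9, 31.0 and 30.8 CPM under negative siRNA and at 6.95, 10.5 and 13.6 CPM under TUNAR siRNAs. It stood lower with TUNAR siRNAs in 6 of 6 pairs of the same treatment and replicate number, at 24.9% to 45.8% of the negative siRNA. All 10 beta cell markers passed the filter, with INS between 20684 and 28891 FPKM (the authors' values, scaled to transcript length and library size). The pancreatic polypeptide gene PPY and the acinar gene PRSS1 were not listed in any of the 12 libraries. Of the other acinar genes, CPA1 was at 13.5 to 22 FPKM and CEL at 0.08 to 0.26 FPKM. The duct gene KRT19 was at 33.4 to 45.8 FPKM and the delta cell hormone SST at 5.89 to 52.9 FPKM. In the same lists CFTR was at 0 to 0.03 FPKM, HHEX at 0 to 0.25 and GCG at 0 to 0.35, and none of them passed the filter. Most of the sum for other islet cells came from SST and from IRX2, which was at 8.03 to 12.4 FPKM. The summed level of the 7 markers of other islet cells ranged from 19.7 to 56.3 FPKM with negative siRNA and from 18.6 to 63.4 FPKM with TUNAR siRNAs in DMSO. In 1-AKP it ranged from 16.9 to 54.5 FPKM and from 16.9 to 52.7 FPKM. The ranges of the marker sums overlapped between the siRNA groups. The beta cell sum is mostly INS, so it tells little of the other beta cell markers. With the replicate number as a block in edgeR, IAPP differed between siRNAs by -0.36 on the log2 scale in DMSO (adjusted p = 1.18e-06). In 1-AKP it differed by -0.35 (adjusted p = 3.21e-05, edgeR). Both calls stayed without any 1 replicate number, unlike those of the other beta cell markers, and neither was made without the block.

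The members differ widely in abundance. Per length, SYPL1 had a mean of 39.2 FPKM over the 12 libraries (SD 7.96), which was above 87.7% of the genes tested. B4GALT4 followed at 29.5 FPKM (SD 5.68). IGFALS at 8.66 FPKM (SD 1.99) and TAS1R3 at 7.86 FPKM (SD 1.68) lay near the middle of all genes tested and did not differ beyond their spread. TCF4 was low at 1.88 FPKM (SD 0.535), and FER1L5 was the lowest at 0.773 FPKM (SD 0.201), above 13.2% of the genes tested. FER1L5 rested on 53 to 112 reads a library, so its lowest library value of 3.36 CPM has a 95% Poisson interval of 2.52 to 4.40 CPM, which covers counting error only. The expected counts were whole numbers in 12 of 12 libraries for 5 of the genes. For TCF4 they were fractional in every library, so its count is an estimate in part.

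Among the 5 genes that stood lower with TUNAR siRNAs, SYPL1 was the most abundant. It was at 109, 107 and 100 CPM under negative siRNA in DMSO and at 62.5, 74.4 and 75.1 CPM under TUNAR siRNAs. In 1-AKP the levels were 113, 106 and 105 CPM under negative siRNA and 76.3, 70.4 and 82.4 CPM under TUNAR siRNAs. The lowest negative siRNA library stood well above the highest TUNAR siRNA library in both treatments. In bulk RNA, fewer cells with a transcript and less of it per cell cannot be told apart. The group means were 106 ± 4.72 and 70.7 ± 7.05 CPM in DMSO and 108 ± 3.95 and 76.4 ± 5.96 CPM in 1-AKP (SD, n = 3). The fitted log2 difference was -0.58 (SE 0.076) in DMSO and -0.50 (SE 0.076) in 1-AKP.

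B4GALT4, the galactosyltransferase, gave nearly the same picture. In DMSO it was at 84.8, 82.5 and 77.6 CPM under negative siRNA and at 51.7, 56.6 and 60.2 CPM under TUNAR siRNAs. In 1-AKP it was at 81.0, 79.4 and 73.0 CPM under negative siRNA and at 53.6, 56.6 and 56.4 CPM under TUNAR siRNAs. The groups did not overlap in either treatment, and replicate 3 was the lowest of the negative siRNA libraries in both. The log2 difference was -0.54 (SE 0.065) in DMSO and -0.49 (SE 0.065) in 1-AKP, the smallest errors among the 6 genes.

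IGFALS, the serum carrier of growth factors, varied more between replicates. With negative siRNA in DMSO it was at 24.8, 23.2 and 16.5 CPM, and with TUNAR siRNAs at 13.5, 16.2 and 13.1 CPM. With negative siRNA in 1-AKP it was at 25.6, 23.6 and 18.4 CPM, and with TUNAR siRNAs at 17.5, 18.8 and 15.9 CPM. In DMSO the negative siRNA library of replicate 3 lay just above the highest TUNAR siRNA library, and in 1-AKP the groups overlapped because that replicate was lower than the TUNAR siRNA library of replicate 2. Within each pair the TUNAR siRNA library was still the lower one. The log2 difference was -0.59 (SE 0.161) in DMSO and -0.37 (SE 0.159) in 1-AKP.

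TAS1R3, the taste receptor subunit, showed its widest gap in DMSO. There it was at 24.9, 26.8 and 27.2 CPM under negative siRNA and at 15.9, 18.5 and 20.1 CPM under TUNAR siRNAs. In 1-AKP the levels were 19.98, 21.0 and 17.9 CPM under negative siRNA and 13.96, 17.99 and 17.5 CPM under TUNAR siRNAs. The groups were apart in DMSO and overlapped in 1-AKP, where the negative siRNA libraries were themselves lower than in DMSO. The log2 difference was -0.54 (SE 0.109) in DMSO and -0.25 (SE 0.112) in 1-AKP. The value in 1-AKP was -0.13 without replicate 1 and -0.14 without its TUNAR siRNA library alone.

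FER1L5, the ferlin, was measured at 6.31, 6.66 and 7.01 CPM under negative siRNA in DMSO and at 3.90, 4.26 and 4.07 CPM under TUNAR siRNAs. In 1-AKP it was at 6.01, 6.12 and 4.90 CPM and at 3.47, 4.69 and 3.36 CPM. The groups did not overlap in either treatment, although the gap in 1-AKP, between 4.69 and 4.90 CPM, was within counting error. Its log2 difference was the widest of the 6 genes in DMSO, -0.71 (SE 0.146), and was -0.56 (SE 0.149) in 1-AKP.

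TCF4, the E protein, was the only member that stood higher with TUNAR siRNAs. In DMSO it was at 11.4, 15.3 and 17.1 CPM under negative siRNA and at 18.2, 22.9 and 22.5 CPM under TUNAR siRNAs. In 1-AKP it was at 7.71, 12.4 and 12.2 CPM under negative siRNA and at 14.9, 15.1 and 15.99 CPM under TUNAR siRNAs. The groups were apart in both treatments, and replicate 1 was the lowest library in every group. The log2 difference was 0.54 (SE 0.173) in DMSO and 0.51 (SE 0.181) in 1-AKP. The value in 1-AKP was 0.32 without the negative siRNA library of replicate 1.

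**Figure D1:**
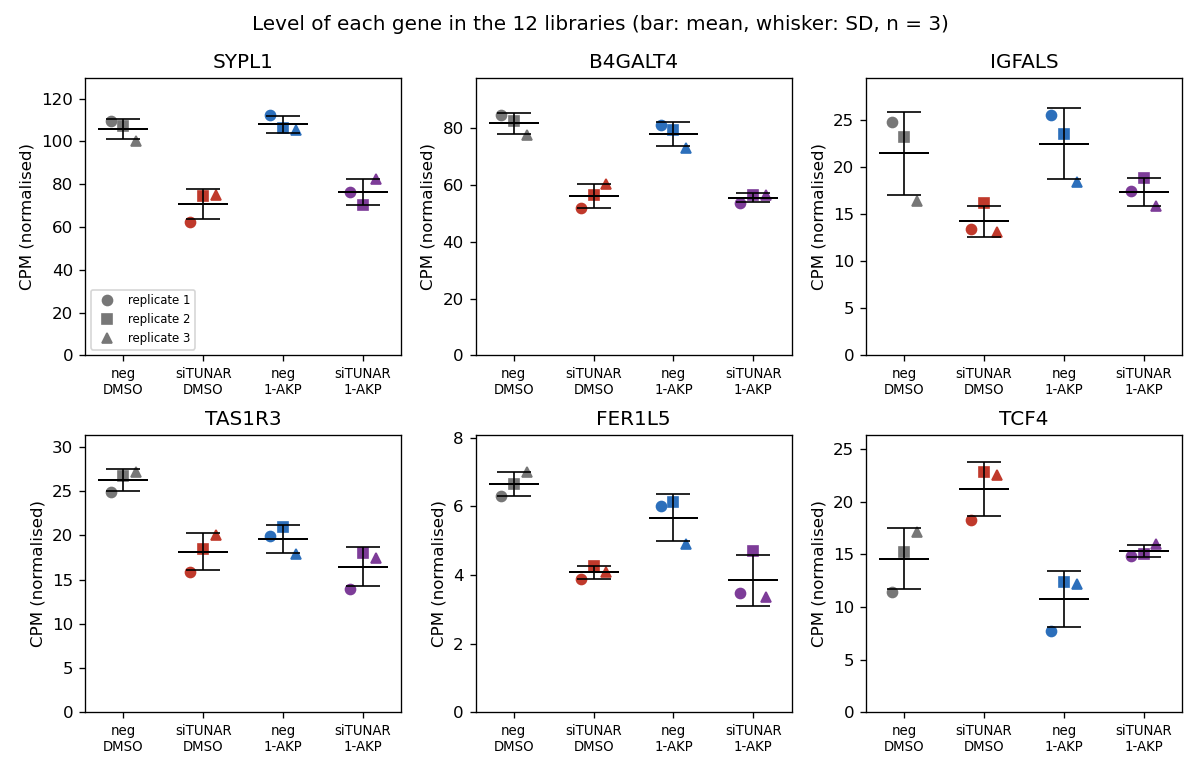
CPM of each gene (y axis, from 0) in the 4 groups (x axis), with 1 point per library, a marker shape for each replicate number, and a bar and whisker for the mean and SD of 3 libraries. The siTUNAR points lie below the negative siRNA points of the same treatment for SYPL1, B4GALT4 and FER1L5, partly overlap them in 1-AKP for IGFALS and TAS1R3, and lie above them for TCF4.

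The groups of 3 did not overlap in DMSO for 6 of the 6 genes, against 10.5% of all genes tested, and in 1-AKP for 4 of the 6, against 8.97% of all genes tested. With the replicate number as a block in edgeR's quasi-likelihood test, 6 of the 6 genes were called in DMSO, where the share of all genes called was 3.05%, and 5 of the 6 in 1-AKP, where it was 2.77%. These counts come from the contrasts that chose the genes, and nothing is read from them. Without the block, SYPL1 and B4GALT4 were the only genes called in DMSO, 0.0125% of all tested, and edgeR called no gene (0%) in 1-AKP. At an unadjusted p under 0.05 the test without the block held 776 genes in DMSO and 743 in 1-AKP.

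Set against the paired negative siRNA library, the 5 lower genes were below 100% in 6 of 6 pairs and TCF4 was above it in 6 of 6. Across the 3 DMSO pairs SYPL1 was at 57.2%, 69.3% and 74.8% and B4GALT4 at 61.0%, 68.6% and 77.6% of the negative siRNA. IGFALS was at 54.2%, 69.6% and 79.6% and TAS1R3 at 63.8%, 69.0% and 73.7%. In these 4 genes the pair of replicate 1 was farthest from 100% and the pair of replicate 3 nearest to it. TUNAR itself was at 26.6%, 36.1% and 45.8% in the same pairs, again with replicate 1 the lowest. TCF4 was at 159%, 150% and 132%, and so was also farthest from 100% in replicate 1. FER1L5, at 61.8%, 63.9% and 58.1%, did not follow this order.

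The 1-AKP pairs gave the same order for some of the genes. B4GALT4 was at 66.1%, 71.3% and 77.3%, IGFALS at 68.4%, 79.8% and 86.3%, and TAS1R3 at 69.9%, 85.7% and 97.6% of the negative siRNA. TUNAR was at 24.9%, 33.8% and 44.1%. SYPL1 was at 67.8%, 66.3% and 78.3%, so that replicates 1 and 2 were close, and FER1L5 was at 57.9%, 76.6% and 68.7%. TCF4 spread most, at 193%, 122% and 131%. The fall in TUNAR followed the replicate number in both treatments, while passage was the same for replicates 1 and 2 and differed for replicate 3. There are only 3 numbers, and the part of each in these differences was not tested.

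**Figure D2:**
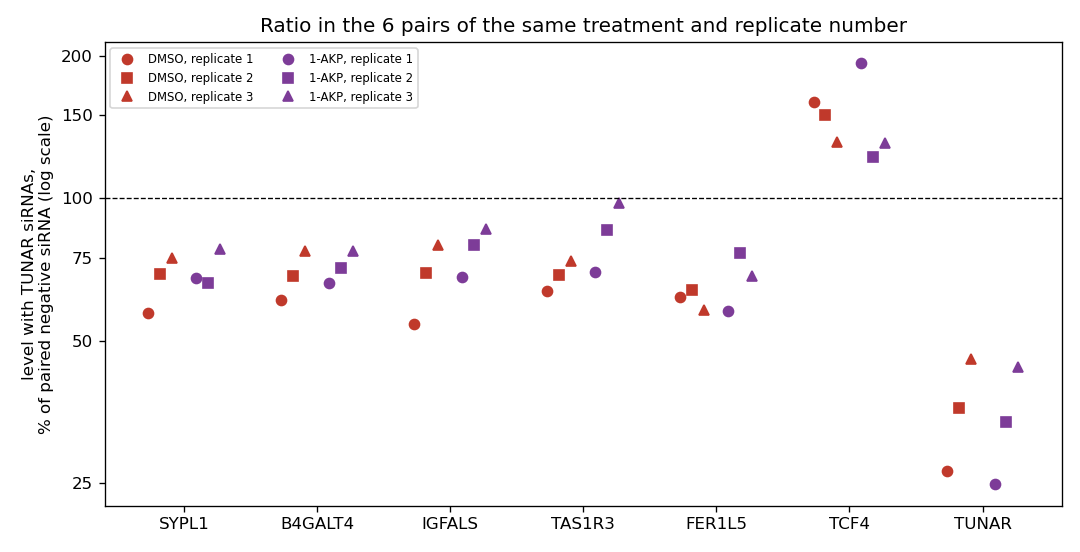
Level with TUNAR siRNAs as a percentage of the paired negative siRNA library (y axis, log scale) for each gene and for TUNAR (x axis), with colours for the treatment and marker shapes for the replicate number. All 30 points of the 5 lower genes lie below the dashed line at 100%, the 6 points of TCF4 lie above it, and TUNAR lies between 24.9% and 45.8%.

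Over the 6 pairs the geometric mean was 64.2% for FER1L5, 68.6% for SYPL1, 70.1% for B4GALT4, 72.2% for IGFALS and 75.8% for TAS1R3. TCF4 had a geometric mean of 146%. The log2 ratios of B4GALT4 had the smallest spread over pairs (SD 0.134) and those of TCF4 the widest (SD 0.242). The log2 difference in 1-AKP minus that in DMSO was 0.28 (SE 0.157) for TAS1R3, 0.22 (SE 0.226) for IGFALS, 0.15 (SE 0.209) for FER1L5, 0.08 (SE 0.107) for SYPL1, 0.05 (SE 0.092) for B4GALT4 and -0.03 (SE 0.251) for TCF4. These SEs are from the fit without the block, where each value was less than 2 times its SE. With the block TAS1R3 was at 0.28 (SE 0.113), more than 2 times its SE, and the other genes stayed below that. Out of all genes tested, edgeR called 0 in this difference, with or without the block. The values contain the DMSO difference that chose the genes, and nothing is read from them.

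The selection was for differences that survive leaving out a replicate, and the label of most consistent can be set against adjusted p and size. In DMSO, 84 genes kept their call in the block fit without any 1 replicate number, 43 of them lower and 41 higher with TUNAR siRNAs. Among these 84, ordered by the highest adjusted p that any left-out number gave (edgeR), B4GALT4 ranked 9th, TAS1R3 30th and TCF4 60th, and FER1L5 was the last, at rank 84. By size of the log2 difference, FER1L5 ranked 1st, IGFALS 3rd, SYPL1 4th, TCF4 6th, B4GALT4 7th and TAS1R3 8th. The 84 genes had a median absolute log2 difference of 0.30, within a range of 0.14 to 0.71. The 6 genes are therefore among the widest of the stable differences in DMSO, and not those with the lowest leave-out adjusted p. That p also depends on the size of the difference and on read number, so it does not measure spread alone. FER1L5, last by it, differed by -0.74 to -0.66 over the left-out numbers. Its log2 ratios in the DMSO pairs had the smallest spread of the 6 genes (SD 0.070). In 1-AKP 63 genes met the same rule and 43 met it in both treatments, and of the 6 genes only SYPL1 and B4GALT4 did.

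FER1L5 was just inside the limit of 0.05, with a highest adjusted p of 0.0492 from edgeR. SSTR5, a somatostatin receptor, was just outside at 0.0505 with a log2 difference of -0.81, and CGN, a tight junction protein, at 0.0510 with 0.22. TUNAR itself was not among the 84, since its block call in DMSO was lost without replicate 2.

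**Figure D3:**
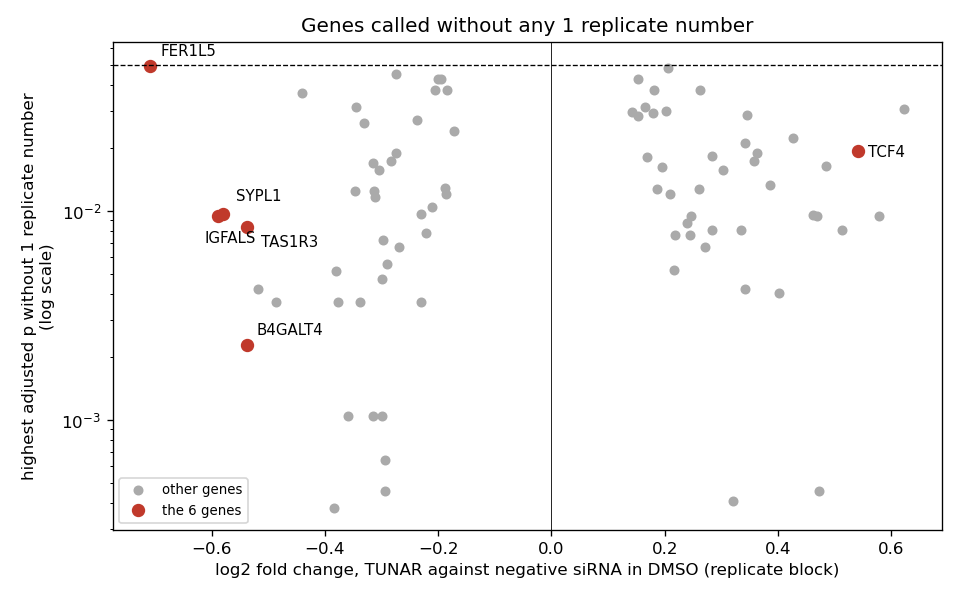
Fitted log2 difference between TUNAR and negative siRNA in DMSO (x axis) against the highest adjusted p when 1 replicate number was left out (y axis, log scale, limit of 0.05 dashed) for the 84 genes that kept their call. The 6 genes, in red, sit at the outer edges of the x axis, FER1L5 touches the limit, and B4GALT4 is the lowest of the 6.

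The response to 1-AKP, averaged over both siRNAs, weights the siRNA groups alike and did not choose the genes, so it was tested. Of the 6 genes, 2 passed the threshold, TAS1R3 and TCF4, and both fell, beside 19.2% of all genes tested that were called in this comparison (9.25% lower and 9.97% higher). TAS1R3 was at 82.3% of its DMSO level, a log2 change of -0.28 (95% interval -0.45 to -0.11, adjusted p = 0.0240, edgeR). TCF4 was at 73.0%, a log2 change of -0.45 (95% interval -0.73 to -0.18, adjusted p = 0.0240, edgeR). TUNAR rose to 167% of its DMSO level, a log2 change of 0.74 (SE 0.180, adjusted p = 0.0143, edgeR), a call that ended without replicate 2 (adjusted p = 0.144) or 3 (adjusted p = 0.105).

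Without a replicate block, both calls depended on the libraries used. The TAS1R3 call ended without replicate 2 (adjusted p = 0.159) or without replicate 3, which leaves passage 74 alone (adjusted p = 0.253), and the edgeR call of TCF4 ended in the same cases (adjusted p = 0.225 and 0.180). In these cases the calls among all genes tested fell from 3074 to 543 and 850, so the loss was not particular to these 2 genes. Leaving out single libraries, the call of TAS1R3 also ended without replicate 2 or 3 of either siRNA in DMSO, or without replicate 3 of negative siRNA in 1-AKP, at adjusted p of 0.0504 to 0.0620. That of TCF4 ended without replicate 2 or 3 of either siRNA in DMSO, or without replicate 2 of TUNAR siRNAs in 1-AKP, at adjusted p of 0.0509 to 0.0596. Over all alternatives the log2 change stayed between -0.33 and -0.22 for TAS1R3 and between -0.53 and -0.30 for TCF4. With passage as a covariate both calls held (adjusted p = 0.0209 and 0.0125, edgeR), and passage 75 alone has 1 library a group and gives no test. With a replicate block, an alternative in this comparison, TAS1R3 passed at adjusted p = 0.000110 and TCF4 at 6.71e-07 (edgeR). That fit called 39.7% of all genes tested, and under it both calls held without any 1 replicate number.

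The other 4 genes did not pass. The log2 change was 0.07 for SYPL1 (95% interval -0.04 to 0.19, adjusted p = 0.403), -0.04 for B4GALT4 (-0.14 to 0.06, adjusted p = 0.578), 0.18 for IGFALS (-0.07 to 0.42, adjusted p = 0.315) and -0.16 for FER1L5 (-0.38 to 0.07, adjusted p = 0.337), all from edgeR. For SYPL1 and B4GALT4 these intervals leave room only for changes much smaller than the differences between siRNAs. With a replicate block, IGFALS passed at adjusted p = 0.0156 (edgeR), in a fit that called 39.7% of all genes tested.

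The effect of 1-AKP can be set out by siRNA as well. This split uses the DMSO values whose difference between siRNAs chose the genes. It is therefore a description, and only the average over siRNAs was tested. TAS1R3 differed by -0.42 on the log2 scale with negative siRNA and by -0.14 with TUNAR siRNAs, while TCF4 differed by -0.44 and -0.47. Its group means put the opposite directions together. TCF4 averaged 14.6 ± 2.89 CPM with negative siRNA in DMSO, 21.2 ± 2.58 with TUNAR siRNAs, 10.8 ± 2.64 with 1-AKP and 15.3 ± 0.598 with both (SD, n = 3). The libraries with both agents thus overlapped those with neither. TAS1R3 averaged 26.3 ± 1.22 CPM with neither, 18.1 ± 2.10 with TUNAR siRNAs, 19.6 ± 1.59 with 1-AKP and 16.5 ± 2.19 with both. For TAS1R3 the group with both agents had the lowest mean, and its libraries overlapped those of either agent alone.

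**Figure D4:**
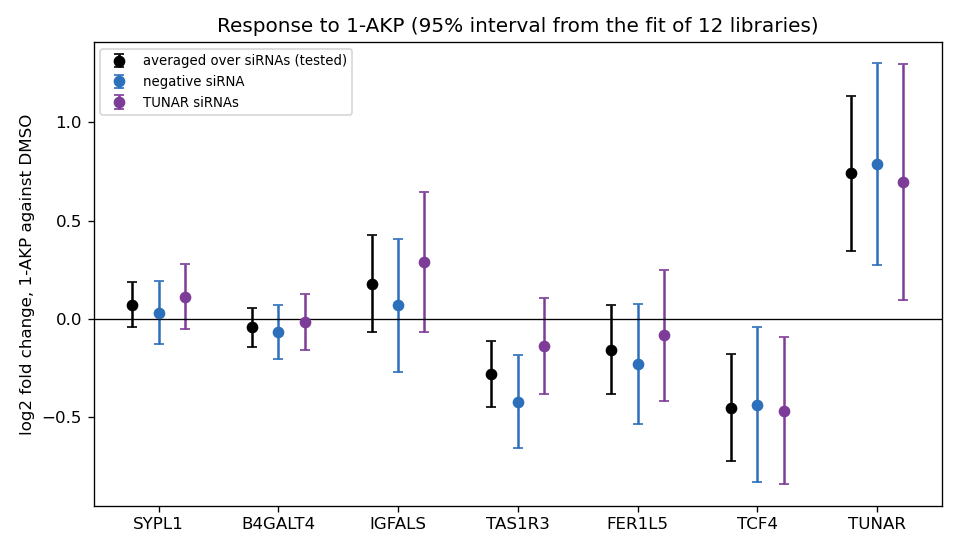
Fitted log2 change in 1-AKP against DMSO (y axis) with its 95% interval for each gene and TUNAR (x axis), averaged over siRNAs (black) and within each siRNA (blue and purple). The blue and purple values share the DMSO difference that chose the genes and are a description. The black intervals lie below 0 for TAS1R3 and TCF4, above 0 for TUNAR, and cross 0 for the other 4 genes.

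Levels also differed between replicate numbers in 2 of the 6 genes, beside 39.2% of all genes tested (F test in edgeR with the group in the model). IGFALS averaged 20.3, 20.4 and 15.95 CPM over the 4 libraries of replicates 1, 2 and 3 (adjusted p = 0.000180), and replicate 3, from passage 75, was the lowest in 4 of 4 groups. TCF4 averaged 13.1, 16.4 and 16.9 CPM (adjusted p = 0.000327), and replicate 1 was the lowest in 4 of 4 groups. TAS1R3 averaged 18.7, 21.1 and 20.7 CPM and did not pass (adjusted p = 0.0815), but did without replicate 1 or 3 of negative siRNA in 1-AKP (adjusted p = 0.0233 and 0.0191). For SYPL1, B4GALT4 and FER1L5 the adjusted p was 0.946, 0.798 and 0.450.

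Some pairs of the genes also varied together. Over the 12 libraries the log2 CPM of SYPL1 and B4GALT4 had a Pearson r of 0.956, B4GALT4 and FER1L5 one of 0.915, and TAS1R3 and FER1L5 one of 0.871. IGFALS and TCF4 ran opposite, with r = -0.817, while TAS1R3 and TCF4 were nearly unrelated, with r = -0.12. All these values contain the siRNA difference that chose the genes, and the libraries share replicate numbers. After the group means were removed, r was 0.695 for SYPL1 and B4GALT4, 0.690 for B4GALT4 and TAS1R3, 0.607 for TAS1R3 and FER1L5, and -0.57 for IGFALS and TCF4. It fell to 0.351 for B4GALT4 and FER1L5, and was 0.296 for TAS1R3 and TCF4 and -0.27 for SYPL1 and FER1L5. Other pairs were nearly unrelated within groups: IGFALS and TAS1R3 (r = 0.082), SYPL1 and TCF4 (r = -0.04), and FER1L5 and TCF4 (r = -0.01).

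Among 13597 genes compared over the 12 libraries, the profile nearest to SYPL1 was that of PPP1R15B (r = 0.976), a regulatory subunit of the phosphatase that acts on the translation factor eIF2α. PPP1R15B was also close to B4GALT4 (r = 0.960), whose nearest gene was NR2F2 (r = 0.961), the nuclear receptor COUP-TFII. The nearest to IGFALS was SPINT1 (r = 0.934), an inhibitor of serine proteases. The nearest to TAS1R3 was the antisense transcript MRPL23-AS1 (r = 0.956), followed by PANK1 (r = 0.944), a kinase of coenzyme A synthesis. The nearest to FER1L5 was DMTN (r = 0.943), an actin-binding protein. Genes close to TCF4 included RALGAPB (r = 0.965), a subunit of a complex that acts on Ral GTPases, and TSPAN2 (r = 0.963), a tetraspanin. NR2F2 differed between siRNAs by -0.44 in DMSO and -0.45 in 1-AKP on the log2 scale, close to B4GALT4, while PPP1R15B differed by -0.23 and -0.18 and SPINT1 by -0.07 and -0.05. A high correlation therefore does not mean a difference of similar size. These correlations contain the siRNA difference that chose the members, and they were not taken within groups. PPP1R15B and DMTN were themselves among the 84 genes that kept their DMSO call without any 1 replicate number, while the other similar genes named here were not.

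Genes next to the members on the chromosome were read from the RefSeq annotation of GRCh38.p14, used only for the order of genes because the authors' build is GRCh37. None of the 14 neighbouring or overlapping genes was called between siRNAs in either treatment, with or without the block, and the smallest block adjusted p was 0.0949 (edgeR). That value belonged to B4GALT4-AS1, an antisense transcript that overlaps B4GALT4, with log2 changes of -0.66 in DMSO and -0.98 in 1-AKP. It was at 2.22 FPKM against 29.5 for B4GALT4. DVL1, a Wnt signalling protein whose gene overlaps TAS1R3, was at 17.6 FPKM, above TAS1R3, with log2 changes of -0.12 in DMSO and 0.09 in 1-AKP. The labels describe no strand-specific library, so strand cannot be used to tell apart reads of the overlapping stretches. The expected counts of B4GALT4 and TAS1R3 were whole in 12 of 12 libraries, so their totals show no reads shared out in fractions.

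TCF4 binds E-boxes, with CAGGTG and CAGCTG as the forms typical of E proteins, and the promoters of the other members were searched for them. RefSeq windows of 300 bases on GRCh38.p14, from 250 before to 50 after the start, were held for 5 of the 6 genes. The sites below are shown because they are the E protein forms upstream of a start in SYPL1 and IGFALS, read 5′ to 3′ on the strand of the gene with the site in capitals. CACCTG is CAGGTG read on the other strand.
SYPL1, chr7:106112466-106112491, minus strand: tcgactcggcCAGGTGcggcctgagg
SYPL1, chr7:106112733-106112758, minus strand: gtagtgagctCAGCTGtggtgagctc
IGFALS, chr16:1795131-1795156, minus strand: tctcccttccCACCTGgaatgtgtgg
IGFALS, chr16:1795109-1795134, minus strand: gtggggctccCAGGTGgggtgcgcgg
IGFALS, chr16:1794909-1794934, minus strand: gccgagacgcCACCTGgaaaatgatc

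The 2 SYPL1 sites belong to windows of different start sites, and the first base of each lies at -169 and -172 relative to that start. The 3 IGFALS sites begin at -238, -216 and -16. TAS1R3 had 1 CAGGTG in its window, and B4GALT4 had no CANNTG at all. Of all 35116 windows, 20.6% held CAGGTG on either strand, 17.9% held CAGCTG and 68.7% held the general form CANNTG, which includes both, so such matches are common. CTTTGA, the core of sites bound by TCF/LEF factors of the Wnt pathway, was in 12.9% of all windows and in 0 of the 15 windows of these genes. Most of the 15 are alternative starts of TCF4, the 2 SYPL1 windows overlap, and only 5 genes are held. Counted by gene, 15.5% of all genes had CTTTGA in a window, so nothing is read from its absence in 5. The letters are a description of these windows and show no binding.

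The relatives and partners of each gene were followed through 6 lists with 85 entries other than the 6 genes, of which 55 were tested. Without the block, edgeR called none of them between siRNAs in either treatment. With the block it called 5 in DMSO and 4 in 1-AKP, where 3.05% and 2.77% of all genes tested were called. In the 1-AKP comparison averaged over siRNAs, 15 were called without the block, 7 higher and 8 lower, beside 19.2% of all genes tested. With the block, which called 39.7% of all genes tested in that comparison, the calls higher and lower were 2 and 2 for the list of SYPL1, 3 and 2 for that of B4GALT4, 4 and 7 for IGFALS, 2 and 0 for TAS1R3, 1 and 4 for FER1L5, and 1 and 5 for TCF4. Of the 15 called without the block, the calls of INSR, IGF1R, IRS2, ITPR3 and ID2 held in all 26 alternatives, the calls of 9 were lost without replicate 2 or without replicate 3 (adjusted p = 0.0511 to 0.157, edgeR), and that of SYT9 was lost in 12 alternatives. Without replicate 2 or 3 the calls among all genes tested also fell, from 3074 to 543 and 850.

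Among the physins and gyrins, the vesicle membrane family of SYPL1, 5 of 7 relatives were tested and none was called between siRNAs in DMSO or 1-AKP with the block. SYP, the synaptophysin of neuroendocrine vesicles, was far more abundant than SYPL1 at 275 FPKM and differed between siRNAs by 0.03 in DMSO and 0.09 in 1-AKP on the log2 scale. SYNGR2 was at 42.7 FPKM with -0.04 and -0.02. The list's median was 0.03 in DMSO, against 0.00 for all genes tested. In 1-AKP against DMSO, SYP rose by 0.16 (adjusted p = 0.000920) and SYNGR1 and SYNPR changed by -0.44 (adjusted p = 0.00584) and -1.02 (adjusted p = 0.00154), all by edgeR.

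Around B4GALT4, 11 of 14 galactosyltransferases and enzymes of sulfated lactosamine chains were tested. None of the other 6 B4GALT enzymes tested was called between siRNAs, and B4GALT5, the most abundant at 35.5 FPKM, differed by 0.02 in DMSO and 0.06 in 1-AKP. CHST2, a sulfotransferase that acts on the same type of chain, rose with TUNAR siRNAs by 0.35 in DMSO (adjusted p = 0.00237) and 0.27 in 1-AKP (adjusted p = 0.0141) in the block fit of edgeR. Its call in DMSO stayed without any 1 replicate number, while that in 1-AKP ended without replicate 2 (adjusted p = 0.314). The list's median was -0.06 in DMSO. In 1-AKP against DMSO, B4GALT3 rose by 0.21 (adjusted p = 0.00844) and B4GALT5 by 0.24 (adjusted p = 0.00369).

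In the insulin-like growth factor system of IGFALS, 16 of 18 genes were tested. IGF2, the growth factor that the IGFALS complex carries and the most abundant of the list at 251 FPKM, fell with TUNAR siRNAs by 0.23 on the log2 scale in DMSO (adjusted p = 8.73e-07) and by 0.21 in 1-AKP (adjusted p = 4.64e-06) in the block fit. IGFBP5, a binding protein that also forms the ternary complex with IGFALS, rose by 0.46 in DMSO (adjusted p = 1.55e-06) and 0.35 in 1-AKP (adjusted p = 0.000297). Both calls stayed without any 1 replicate number in both treatments, and neither was made without the block. IGFBP2, the other abundant binding protein, was at 27.9 FPKM with log2 changes of 0.09 and 0.04. The list's median was 0.00 in DMSO, as for all genes tested. In 1-AKP against DMSO, the receptors INSR and IGF1R changed by -0.47 (adjusted p = 3.05e-06) and -0.44 (adjusted p = 3.57e-05), the adaptor IRS2 by -0.41 (adjusted p = 0.000319), IGFBP3 by -0.65 (adjusted p = 0.00800) and the clearance receptor IGF2R by 0.24 (adjusted p = 0.000302).

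For TAS1R3, 6 of 14 genes of taste reception and its transduction were tested, and none was called between siRNAs. The umami partner TAS1R1 was listed with a mean of 0.047 FPKM and did not pass the filter, and the sweet partner TAS1R2 was not among the genes listed. Of the downstream genes, GNB1 was at 233 FPKM, ITPR3 at 25.8 and the channel TRPM4 at 1.11, with log2 changes of 0.05, 0.09 and -0.17 in DMSO. In 1-AKP against DMSO, GNB1 rose by 0.13 (adjusted p = 0.00225) and ITPR3 by 0.31 (adjusted p = 6.72e-05), while TAS1R3 fell.

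FER1L5 was the only ferlin that passed the filter. DYSF, OTOF, MYOF and FER1L6 had means of at most 0.018 FPKM. The synaptotagmins, a family of vesicle and membrane proteins with C2 domains of which only some bind calcium, made up the 7 genes tested of 13 listed, with SYT13 at 61.2 FPKM, SYT11 at 36.6 and SYT7 at 27.1. SYT11 rose with TUNAR siRNAs by 0.24 in DMSO (adjusted p = 1.37e-05) and 0.24 in 1-AKP (adjusted p = 3.68e-05) in the block fit and kept both calls without any 1 replicate number. SYT13 and SYT7 differed by 0.00 and 0.11 in DMSO and were not called. In 1-AKP against DMSO without the block only SYT9 passed, at 0.34 (adjusted p = 0.0316), and this call was lost in 12 of 26 alternatives. With the block most of the calls were lower: SYT4 at -0.28 (adjusted p = 8.03e-07), SYT7 at -0.17 (adjusted p = 2.66e-06), SYT5 at -0.21 (adjusted p = 0.0114) and SYT11 at -0.08 (adjusted p = 0.00846) passed beside SYT9.

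Of the E proteins, ID inhibitors and bHLH partners around TCF4, 10 of 19 were tested. The other E proteins were more abundant than TCF4, with TCF12 at 18.3 and TCF3 at 16.5 FPKM, and neither was called between siRNAs, at 0.09 and -0.03 in DMSO. NEUROD1, the beta cell bHLH partner, was at 67.8 FPKM with -0.02. ID2, which binds E proteins and blocks them, rose with TUNAR siRNAs in DMSO by 0.15 (adjusted p = 0.0412) in the block fit, and this call ended when any 1 replicate number was left out (adjusted p = 0.0795 to 0.274). In 1-AKP against DMSO, ID2 changed by -0.30 (adjusted p = 0.000279) and ID4 by -0.47 (adjusted p = 0.000553), beside the fall in TCF4. The list's median in that comparison was -0.20, against 0.00 for all genes tested.

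**Figure D5:**
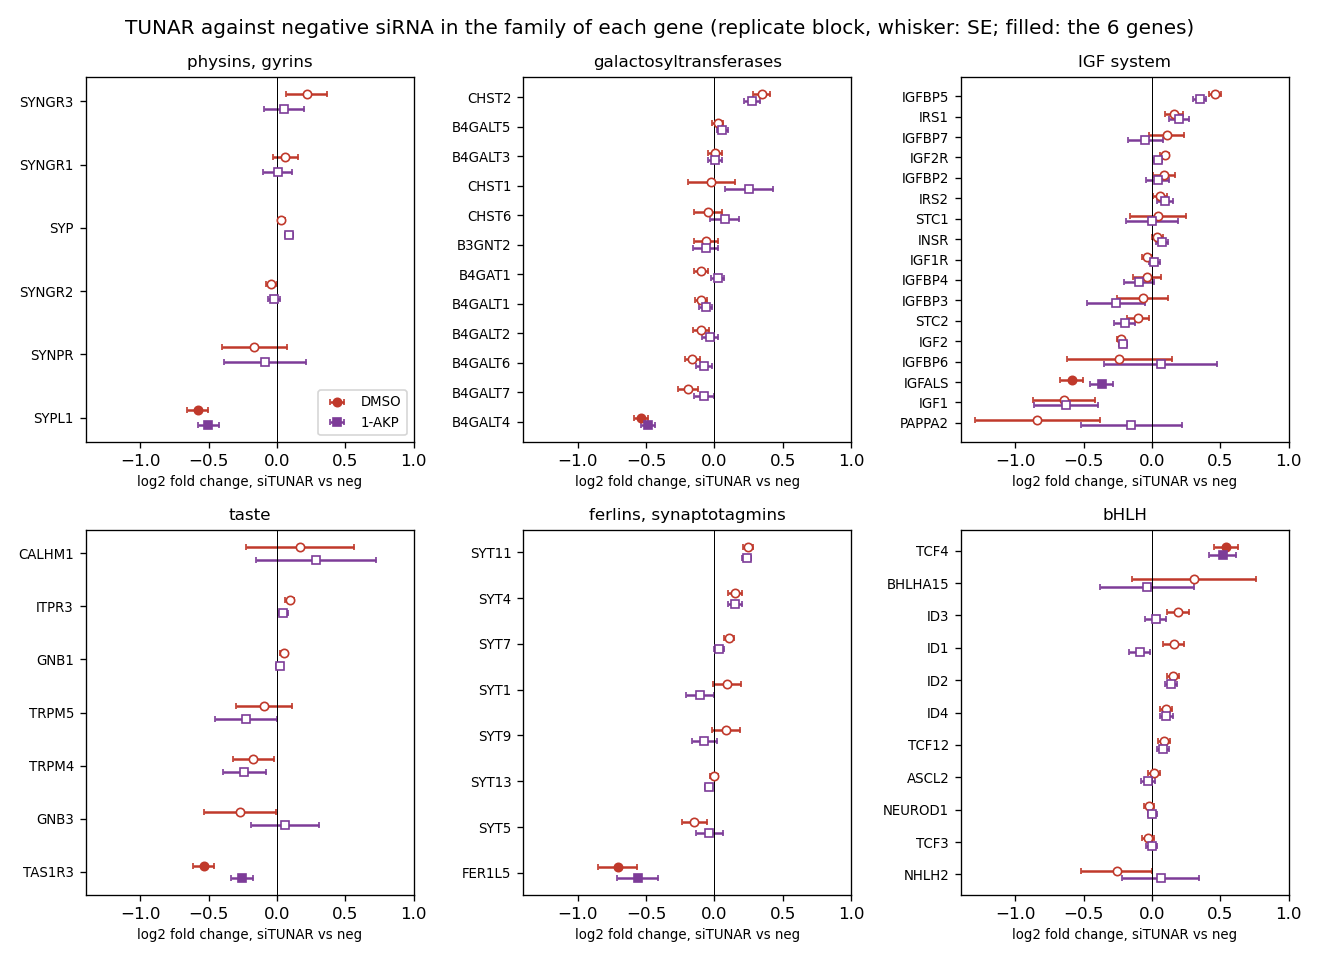
Log2 difference between TUNAR and negative siRNA (x axis) with its SE in the block fit, for each tested gene of the 6 lists (y axis), in DMSO (circles) and 1-AKP (squares), with the 6 genes filled. SYPL1, B4GALT4, TAS1R3 and FER1L5 are the lowest of their lists in DMSO, IGF1 and PAPPA2 lie below IGFALS with wide errors, and IGFBP5, SYT11 and CHST2 stand at the upper end of their lists.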

How the data were processed

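RNA of EndoC-βH1 cells was polyA-selected and sequenced on an Illumina HiSeq, per the labels' protocols. The deposited tables give, per the file headers, the expected count, the FPKM and the length of each gene in each library. RSEM, Bowtie, BWA and the build hg19 (GRCh37) are named in the submitters' processing notes, with no version, and strand and filters are not given in the sources used here. A gene missing from a library's table was set to 0, and 21386 of 21508 Entrez IDs matched a symbol.

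Expected counts, between 35.3% and 36.0% of them not whole, were rounded and fitted with edgeR 4.0.16 in R 4.3.3 (quasi-likelihood, robust, TMM factors 0.990 to 1.01, filterByExpr with a minimum count of 10 and total of 15), over all 12 libraries as 4 group means, with Benjamini-Hochberg adjustment over 15990 genes and a limit of 0.05. These genes hold 99.9% of the counts. The members and lists were chosen with earlier results of these data known. A gene of the lists and a gene of similar profile are not reported here. Genes named from a list are its 3 most abundant and up to 4 called ones with the lowest p, and, where a count of calls was 5 or fewer, the others in that count; similar genes are the highest correlations of log2 CPM (prior count 2, mean at least 1).

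The replicate number was used as a block beside comparisons of siRNAs because same-numbered libraries deviated together in every pair (correlation of deviations from the group means 0.162 to 0.416, over a minimum of 0.1). This rests on the data, since no label explains the numbers. Between treatments it was as low as 0.0634, so the block is an alternative there. No 2 libraries of a group agreed within sampling noise (chi-square per degree of freedom at least 2.31). The alternatives were other scalings, no filter, DESeq2 1.42.0, limma 3.58.1 on log2(FPKM + 0.1) or log2(FPKM + 1), the block, passage, and leaving out libraries. The scripts were tested on simulated counts.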

Additional observations from a re-analysis of the deposited data

How the results depend on the processing

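No log2 change that was followed reversed its sign under any alternative. The log2 differences of the 6 genes between siRNAs kept their direction in all 26 alternatives. FER1L5 moved to -0.32 in DMSO and -0.23 in 1-AKP and TCF4 to 0.37 in DMSO on log2(FPKM + 1), a scale that shrinks low genes by construction, which also put TCF4 in 1-AKP at 0.32. TCF4 in DMSO was at 0.40 without replicate 1 of negative siRNA, and in 1-AKP at 0.32 without replicate 1 of negative siRNA. TAS1R3 in 1-AKP was at -0.13 without replicate 1. The replicate block moved the counts of calls most: from 2 to 488 between siRNAs in DMSO (273 higher, 215 lower), from 0 to 443 in 1-AKP (231 higher, 212 lower), and from 3074 to 6343 for 1-AKP averaged over siRNAs (3297 higher, 3046 lower). Leaving out replicate 1, 2 or 3 under the block gave 327, 122 and 243 calls in DMSO, 306, 130 and 223 in 1-AKP, and 5736, 4969 and 4735 for 1-AKP averaged over siRNAs. Without the block, leaving out a replicate number or a library gave 0 to 45 calls in each siRNA comparison and 543 to 4626 for 1-AKP. DESeq2 called 19 genes in DMSO and 9 in 1-AKP, limma on log2(FPKM + 0.1) and log2(FPKM + 1) each called 1 in DMSO, and no filter gave 1 in 1-AKP. For replicate numbers DESeq2 called 4011 genes in place of 6263. The balance of the 1-AKP calls did turn: with library size alone they were 1321 higher and 1733 lower, against 1595 and 1479. They were 1300 and 1648 with limma on log2(FPKM + 0.1), and 1303 and 1650 on log2(FPKM + 1). Lower calls also outnumbered higher ones without replicate 2 (225 higher, 318 lower) or 3 (382 higher, 468 lower), and without some single libraries. The cause of these shifts was not tested. With 3 libraries a group and 8 residual degrees of freedom (6 with the block), TCF4 and IGFALS have the widest SEs of the 6 genes without the block.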
